A study of Drosophila melanogaster with 12 samples.

Results

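The innexins examined were the 7 gap junction genes zpg, ogre, Inx2, Inx3, Inx5, Inx6 and Inx7 of Drosophila melanogaster, chosen by symbol in the Release 6 annotation from 17023 counted genes. Their mRNAs were followed in polysome and input fractions of whole ovaries from 3 genotypes, with 2 libraries in each of 6 groups and 12 libraries in all. The first genotype was Nop60B RNAi, in which UAS-Dcr2;nosGAL4 drove RNA interference against Nop60B in germ cells, taken from females just after eclosion; Nop60B is the enzyme of the H/ACA particle that turns uridines of ribosomal RNA into pseudouridine. For the cyst control, bam RNAi;hs-bam ovaries were used: nosGAL4 depletes bam, and heat shocks given several times switch on a bam transgene, so that germ cells advance into cysts. The germarial control, YWT, was the young UAS-Dcr2;nosGAL4 ovary, dissected as soon after eclosion as Nop60B RNAi and carrying the same driver and Dcr2 transgene. The cyst control therefore differed from the other 2 genotypes in age and in heat shock as well as in genotype, and these cannot be told apart. Each library came from ovaries of many females, somatic cells included, and 20% of each lysate was kept as input before the rest was sedimented. The libraries are called replicates here, and if they do not come from separate cohorts of flies the p-values measure technical spread only.

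Gap junctions of insects are built from innexins, membrane proteins whose hemichannels dock across the gap between neighbouring cells and let ions and small metabolites pass. In the fly ovary, the germ cells make Zero population growth (zpg, also called Innexin 4), which faces innexins of the surrounding somatic cells, and germ cells without zpg fail to survive and differentiate. Inx2 and ogre (Innexin 1) are made in escort and follicle cells, and Inx3 forms mixed channels with Inx2 in epithelia. Inx5, Inx6 and Inx7 are better known from the nervous system, where they take part in memory formation in the fly brain.

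All 7 genes matched 1 annotated gene each. In dm6, zpg (FBgn0024177) lies on the minus strand of chromosome arm 3L from 6604366 to 6606032, and Inx3 (FBgn0265274) on the minus strand of 3R from 28853606 to 28859497. The other 5 genes lie on the X chromosome. Among them, ogre (FBgn0004646, 6973620 to 6991318), Inx7 (FBgn0027106, 6991612 to 6993612) and Inx2 (FBgn0027108, 6998672 to 7004151) stand side by side, with 293 bases between ogre and Inx7 and 5059 bases between Inx7 and Inx2. Inx5 (FBgn0030989) spans 19168777 to 19170883 and Inx6 (FBgn0027107) spans 20267821 to 20269769. Inx2 is on the plus strand and the other X-linked members are on the minus strand. The signature of the family is a run of tyrosine, tyrosine, glutamine and tryptophan, found once in each of the 7 proteins. The coding exon around it is printed for each gene, 5′ to 3′ on the coding strand from the RefSeq Release 6 genome, with the 4 signature codons in capitals, because it shows how far the genes have diverged at DNA level where the proteins are most alike.
zpg, chr3L:6605509-6605538: tacataaccTACTATCAGTGGgtcgtgctg
ogre, chrX:6976038-6976067: tactacaccTACTACCAGTGGgtgtgcttc
Inx2, chrX:6999441-6999470: taccacaagTACTACCAGTGGgtgtgcttc
Inx3, chr3R:28855748-28855777: tatcacagcTACTATCAATGGgtgccattc
Inx5, chrX:19170044-19170073: tatctgcgcTACTACCAGTGGgtcatcatc
Inx6, chrX:20269054-20269083: tatctgcgcTACTATCAGTGGgtctttatg
Inx7, chrX:6992766-6992795: cggcatgcaTACTACCAGTGGgtgcccttt
Across the 21 pairs, the annotated proteins were 29.6% to 57.4% identical. Inx5 and Inx6 were the closest pair (57.4%), followed by zpg and Inx6 (51.2%), zpg and Inx5 (48.2%), and ogre and Inx2 (47.0%). No pair shared an exonic stretch of 30 bases, so a read of one innexin had no identical copy of that length in another. The exons of ogre overlap lncRNA:CR44084, on the opposite strand, by 403 bases, and the strand setting of the counting is not given in the sources used here.

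The shallowest library (cyst control polysome replicate 1) held 2780781 counts and the deepest (YWT polysome replicate 2) 21626125, around a median of 13615213. Levels are given as CPM, counts scaled to a common library total with TMM factors. The germline marker list, 17 measured genes, summed to 589 to 672 CPM in Nop60B RNAi, 2355 to 4916 CPM in the cyst control and 3243 to 4791 CPM in YWT, and early somatic markers (21 measured) to 3437 to 4847 CPM, 709 to 5470 CPM and 1109 to 1637 CPM in the same order. In bulk ovaries, fewer cells of a type and less RNA per cell cannot be told apart. Nop60B mRNA itself was at 446 to 473 CPM in Nop60B RNAi, 335 to 747 CPM in the cyst control and 1552 to 1906 CPM in YWT, and it fell by 1.94 (log2) in polysomes and fell by 1.88 in input against YWT (edgeR adjusted p = 0.0155 and 0.0242), while it differed by -0.18 and -0.26 from the cyst control (adjusted p = 0.766 and 0.746). The cyst control replicates stood apart: of 6572 genes at a mean of 10 CPM or more, 2243 differed at least 4-fold between its polysome libraries, against 151 of 6647 in Nop60B RNAi and 16 of 6480 in YWT. The titles of the replicate 1 libraries of the cyst control also follow another numbering than the rest. Every test was therefore run with and without that lysate, which leaves 1 cyst control library per fraction, assumed to vary like the other groups.

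Genes were compared with each other per kilobase of annotated exon. In YWT input, zpg was the most abundant innexin at 104 ± 18.1 CPM per kb (SD, n = 2), ahead of Inx3 at 33.5 ± 3.81, ogre at 26.4 ± 1.37, Inx2 at 21.3 ± 1.90 and Inx7 at 9.28 ± 0.627 CPM per kb, with no overlap between neighbours in this order. In YWT polysomes the order was the same, but the replicates of Inx3 (39.7 ± 6.61 CPM per kb), ogre (31.6 ± 7.27) and Inx2 (27.2 ± 10.2) overlapped. Without division by length, YWT input held zpg at 160 CPM, Inx2 at 117, ogre at 104 and Inx3 at 75.2. The order of Inx3, ogre and Inx2 thus rests on the annotated exon lengths. In Nop60B RNAi, Inx3 led both fractions, at 195 ± 4.70 CPM per kb in polysomes and 127 ± 16.9 in input. There, zpg came after ogre and Inx2, at 12.0 ± 12.2 CPM per kb in polysomes and 13.0 ± 1.41 in input. In the cyst control the replicates of zpg, Inx3, Inx2 and ogre overlapped in both fractions, with means of 95.8, 109, 84.4 and 82.4 CPM per kb in polysomes. Inx5 and Inx6 were last in each fraction of each genotype.

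**Figure D1:**
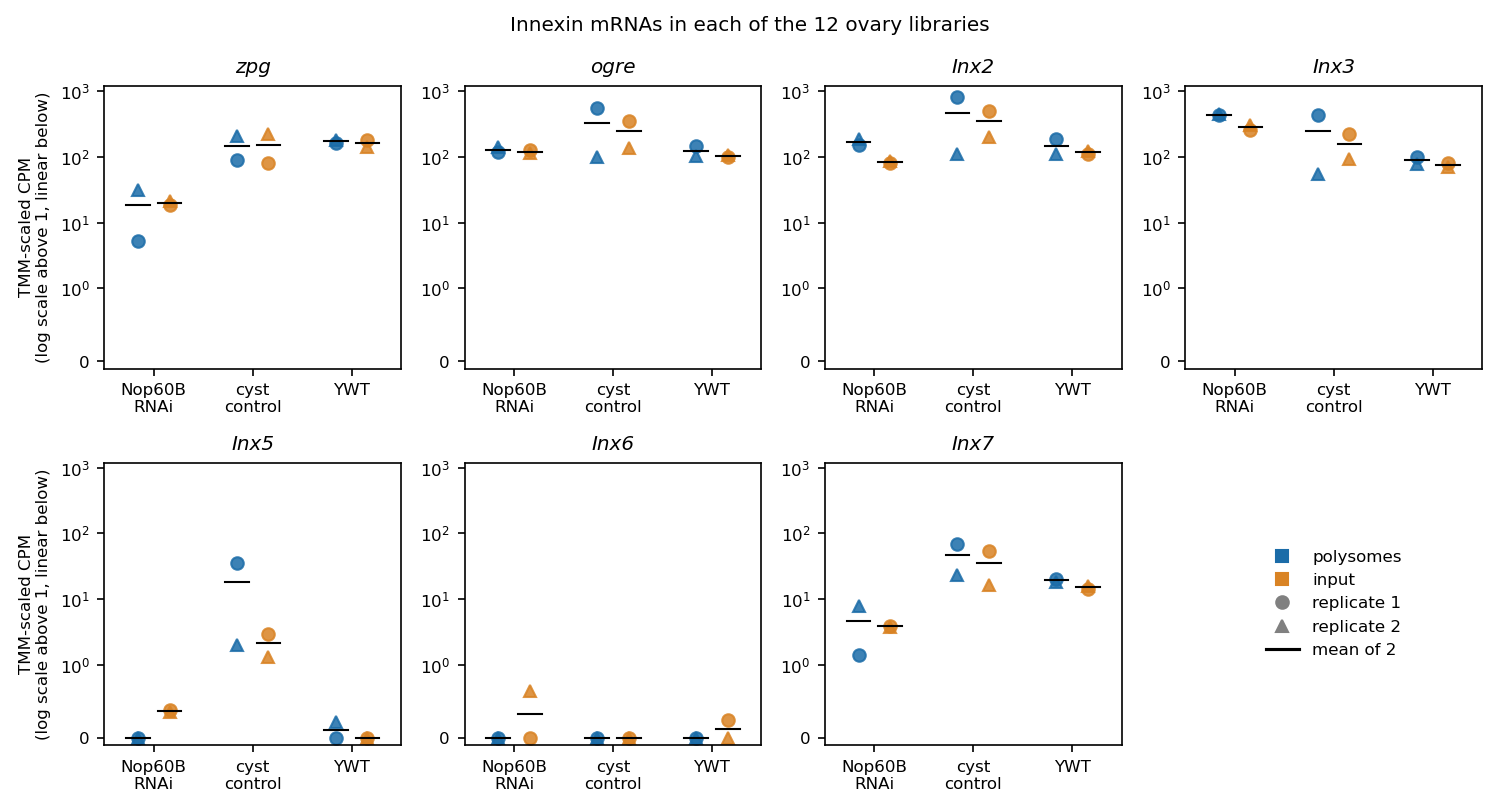
TMM-scaled CPM of each of the 7 innexins (vertical axis, logarithmic above 1 CPM and linear below) in polysomes and input of Nop60B RNAi, the cyst control and YWT; circles are replicate 1, triangles replicate 2 and bars the mean of 2. The 4 Nop60B RNAi values of zpg, between 5.19 and 31.7 CPM, lie below all 8 control values, and those of Inx3 lie above all 4 YWT values.

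The germline innexin zpg was lower in Nop60B RNAi than in every control library, in both fractions. Groups of 2 that lay apart in this direction were common over all genes, at 34.6% (polysomes) and 38% (input) against YWT and 20.6% and 30% against the cyst control. In polysomes it was at 5.19 and 31.7 CPM in Nop60B RNAi, 89.5 and 205 CPM in the cyst control and 164 and 181 CPM in YWT. In input it was at 18.4 and 21.5 CPM in Nop60B RNAi, 79.9 and 219.9 CPM in the cyst control and 180.2 and 141 CPM in YWT. The Nop60B RNAi inputs were close to each other, whereas the polysome libraries differed 6.10-fold. With edgeR's quasi-likelihood test and Benjamini-Hochberg adjustment over 10035 genes, zpg fell by 3.23 ± 0.77 on the log2 scale (SE) in polysomes against YWT (adjusted p = 0.0305). It fell by 3.00 ± 0.77 in polysomes against the cyst control, with an adjusted p of 0.0351. In input the difference was -3.01 ± 0.77 from YWT (adjusted p = 0.0529) and -2.91 ± 0.76 from the cyst control (0.0565), just short of the call at 0.05. The size of the difference was thus alike in both fractions.

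Which library was left out decided the zpg call. In polysomes against YWT the difference was -2.49 (edgeR adjusted p = 0.123) without Nop60B RNAi polysome replicate 1 and -5.05 (adjusted p = 0.0274) without replicate 2. Leaving out either YWT polysome library gave adjusted p of 0.134 and 0.154, and leaving out any 1 Nop60B RNAi or YWT input library gave 0.0534 to 0.0583 with the value at -3.23. Against the cyst control the corresponding values were -2.21 (adjusted p = 0.136) without Nop60B RNAi polysome replicate 1, -4.83 (adjusted p = 0.0241) without replicate 2, and adjusted p of 0.0583 to 0.063 without any 1 of the Nop60B RNAi inputs or the 4 YWT libraries. Without cyst control lysate 1, the zpg difference in input was -3.01 against YWT and -3.46 compared with the cyst control. With 1 library left out at a time, it ran in input from -3.17 to -2.82 against YWT and from -3.46 to -1.97 compared with the cyst control. Whether zpg passed in input depended on the library left out, as did the share of all genes called. With the replicate number as a block, the input differences were -3.09 (adjusted p = 0.0249) and -2.74 (adjusted p = 0.0383). Over the 19 alternatives, edgeR's or DESeq2's adjusted p in input ranged up to 0.31 against YWT and 0.381 against the cyst control, and zpg was below both controls in each.

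The germline markers moved with zpg. Of 17 tested, 8 fell in Nop60B RNAi against YWT in each fraction, where 3.26% (polysomes) and 1.23% (input) of all genes were called lower. Against the cyst control 10 fell in polysomes and 9 in input, where 5.52% and 2.32% were called lower. Against either control 0 were higher. Among the markers that fell were the germ cell genes aub, ovo and bru1. Per 100 CPM of summed germline markers, zpg stood at 3.13 and 3.20 CPM in Nop60B RNAi input, 3.39 and 4.47 in the cyst control and 3.76 and 3.16 in YWT, so that Nop60B RNAi overlapped YWT and was just under the cyst control. In polysomes the same ratio was 0.84 and 5.29 in Nop60B RNAi, 3.76 and 6.40 in the cyst control and 4.59 and 5.58 in YWT. Relative to the germline markers, zpg in Nop60B RNAi was low in polysome replicate 1 alone. The part of germ cell content in the zpg difference was not tested beyond these ratios.

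Inx3, an epithelial innexin, went the other way against YWT. In polysomes it was at 429 and 444 CPM in Nop60B RNAi, 435 and 54.7 CPM in the cyst control and 99.5 and 78.6 CPM in YWT. In input it was at 258 and 311 CPM in Nop60B RNAi, 224 and 94.3 CPM in the cyst control and 81.2 and 69.1 CPM in YWT. All Nop60B RNAi values were above all YWT values, as in 28.4% of all genes in polysomes and 39.5% in input, and the cyst control held a high and a low replicate. Against YWT the differences were 2.29 ± 0.74 in polysomes (edgeR adjusted p = 0.0782) and 1.92 ± 0.73 in input (adjusted p = 0.167), and 0.84 in both fractions when compared with the cyst control (0.439 in polysomes and 0.549 in input), none of which passed. Leaving out cyst control lysate 1, the Inx3 difference from YWT was the same 2.29 in polysomes and 1.92 in input. Compared with the cyst control it was then 3.00 and 1.59. Without cyst control polysome replicate 1 alone, it was 3.00 in polysomes compared with the cyst control. Against YWT the values were 2.26 to 2.29 in polysomes and 1.92 in input without either cyst control polysome library alone. Whether Inx3 was called depended on the library left out, as did the share of all genes called. Over the 19 alternatives the Inx3 difference from YWT ran from 2.13 to 2.47 in polysomes (adjusted p from 2.5e-05 to 0.303) and from 1.78 to 2.05 in input (adjusted p from 9.96e-08 to 0.6).

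With all 12 libraries, most of the early somatic markers were not called, and neither was Inx3. Of 20 tested, 4 rose and 1 fell in Nop60B RNAi polysomes against YWT and 1 rose and 0 fell in input, where 5.38% and 2.93% of all genes were called higher, and 4 rose and 1 fell in polysomes and 0 passed in input against the cyst control, where 3.98% and 2.18% were higher. Their median difference was 1.82 and 1.59 on the log2 scale against YWT in polysomes and input, and 1.49 and 1.00 against the cyst control. With cyst control lysate 1 left out, 11 rose in each fraction against YWT, where 19.5% and 16.1% of genes were called higher, and 2 fell in polysomes and 1 in input. Per 100 CPM of these markers, Inx3 was at 8.86 and 9.81 CPM in Nop60B RNAi polysomes, 7.94 and 7.72 in the cyst control and 6.08 and 7.09 in YWT. In input this ratio was 7.49 and 7.61 in Nop60B RNAi, 5.79 and 7.18 in the cyst control and 6.10 and 5.17 in YWT. The ratio of Inx3 was higher in Nop60B RNAi than in every control library of the same fraction, by a smaller factor than its level was above YWT. The part of somatic cell content in the Inx3 difference was not tested further.

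**Figure D2:**
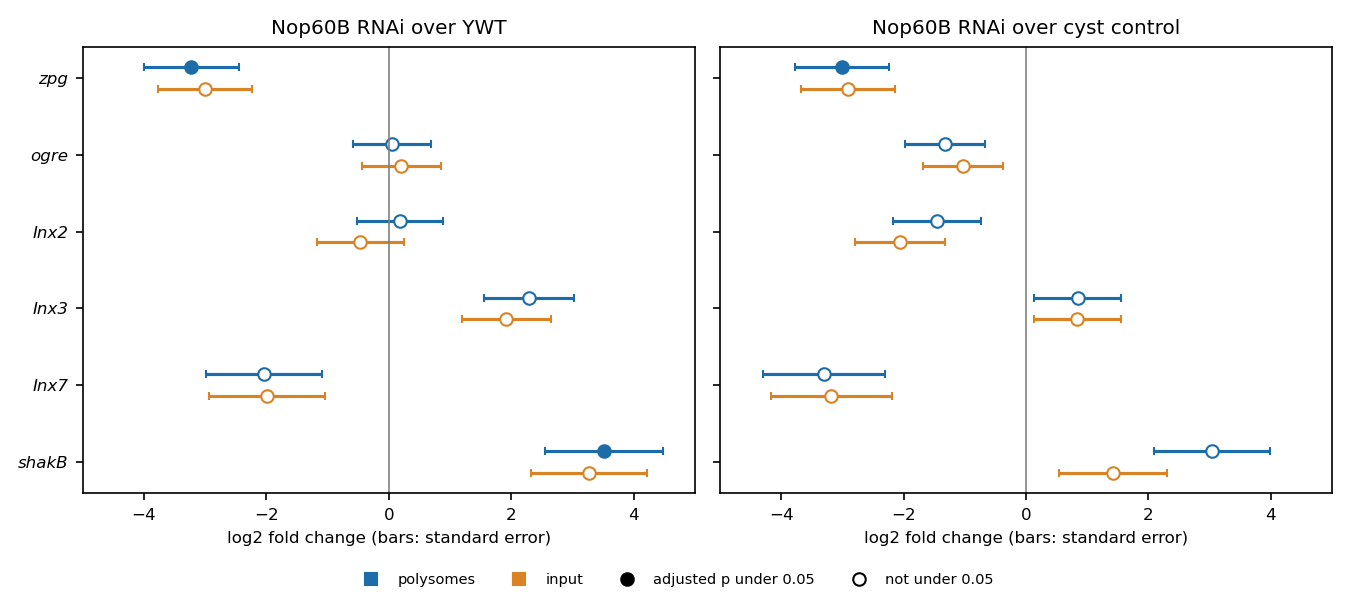
Log2 fold changes for 5 innexins with counts in all groups, and of shakB, in Nop60B RNAi over YWT (left) and over the cyst control (right), in polysomes and input; bars are standard errors from edgeR and filled points have an adjusted p under 0.05. zpg is near -3 in all 4 comparisons, with the polysome points filled, and Inx3 is above 0 in all 4 with none filled.

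The somatic innexins ogre and Inx2 were close to YWT in Nop60B RNAi. In polysomes ogre was at 118 and 140.5 CPM in Nop60B RNAi, 551 and 98.5 CPM in the cyst control and 145 and 104 CPM in YWT. Its input levels were 125 and 115 CPM in Nop60B RNAi, 355 and 136 CPM in the cyst control and 100.3 and 108 CPM in YWT. The Nop60B RNAi values of ogre overlapped YWT in polysomes and lay just above it in input, with differences of 0.05 ± 0.64 and 0.21 ± 0.65 (edgeR adjusted p = 0.991 and 0.919). Inx2, the somatic partner of Zpg, was at 149.7 and 188 CPM in Nop60B RNAi polysomes, 813 and 112 CPM in the cyst control and 189 and 109 CPM in YWT. In input it was at 81.6 and 87.8 CPM in Nop60B RNAi, 507 and 203 CPM in the cyst control and 109.6 and 124 CPM in YWT. Its differences from YWT were 0.18 ± 0.71 in polysomes (adjusted p = 0.910) and -0.47 ± 0.71 in input (adjusted p = 0.799). Standard errors of 0.64 to 0.71 on the log2 scale leave room for a difference of 2-fold in either direction.

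Against the cyst control, ogre and Inx2 depended on the lysate. With all libraries the differences in polysomes were -1.32 for ogre (edgeR adjusted p = 0.202) and -1.45 for Inx2 (adjusted p = 0.204), and without cyst control lysate 1 they were 0.39 (adjusted p = 0.263) and 0.59 (adjusted p = 0.177). Without cyst control polysome replicate 2 instead, ogre fell by 2.04 (adjusted p = 0.00473) and Inx2 fell by 2.22 (adjusted p = 0.00384), so the sign followed the replicate kept; 15.3% of all genes were called lower in the fit without replicate 2. In input Inx2 differed by -2.07 ± 0.74 (adjusted p = 0.136), fell by 1.26 without lysate 1 (0.0113), and passed without either cyst control polysome library, at -2.07 without replicate 1 (0.0074) and -2.04 without replicate 2 (0.0076), where 11.4% and 10.8% of all genes were called lower. In the cyst control polysomes both genes were several times higher in replicate 1 than in replicate 2, 7.27-fold for Inx2. The early somatic markers were at 5470 CPM in cyst control polysome replicate 1 and 709 CPM in replicate 2, and sheath muscle markers (12 measured) at 34633 and 4793 CPM in the same libraries. Per 100 CPM of early somatic markers, Inx2 was at 3.09 and 4.15 CPM in Nop60B RNAi polysomes, 14.9 and 15.8 in the cyst control and 11.5 and 9.87 in YWT, so on this scale the 2 cyst control replicates were close to each other. The same ratio for ogre was 2.44 and 3.10 in Nop60B RNAi polysomes, 10.1 and 13.9 in the cyst control and 8.85 and 9.41 in YWT. On this scale Inx3 in Nop60B RNAi was above every control library of the same fraction. In contrast, ogre and Inx2 in Nop60B RNAi were below every control library, in input too. The marker sum was larger in Nop60B RNAi polysomes, at 4847 and 4528 CPM, than in YWT polysomes, at 1637 and 1109 CPM. A gene at its YWT level therefore falls below YWT on this scale. How many genes lie apart in this way was not counted.

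**Figure D3:**
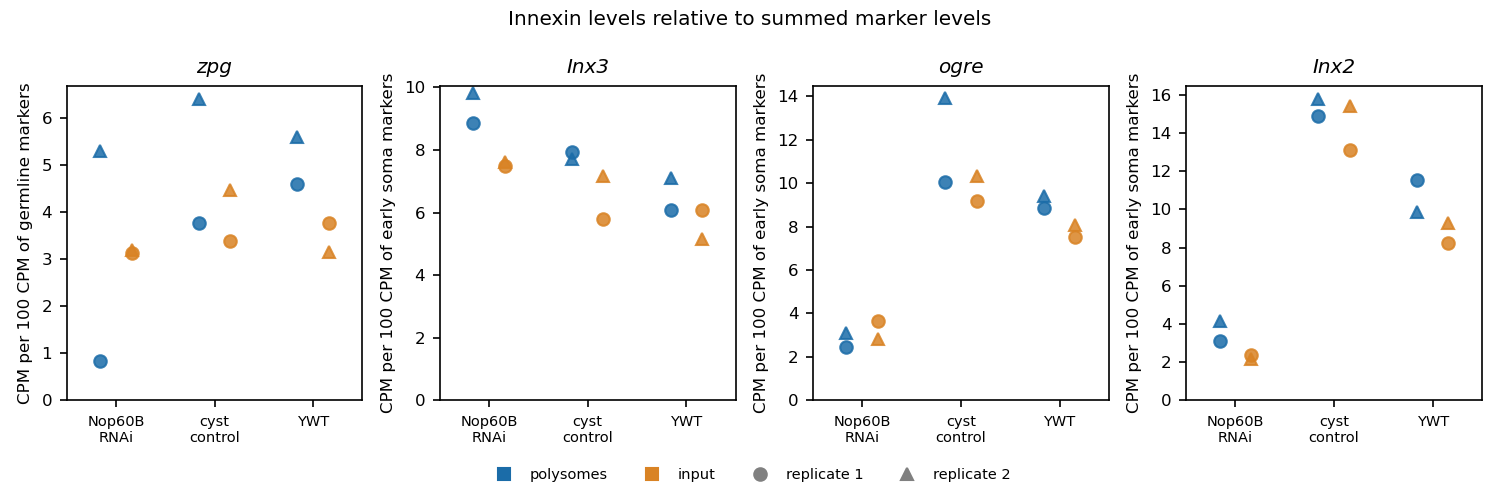
CPM of zpg per 100 CPM of summed germline markers, and of Inx3, ogre and Inx2 per 100 CPM of summed early somatic markers (linear vertical axes from 0), in each library of Nop60B RNAi, the cyst control and YWT; circles are replicate 1 and triangles replicate 2. ogre and Inx2 lie lower in the 4 Nop60B RNAi libraries than in all 8 control libraries, Inx2 at 2.15 to 4.15 CPM against 8.23 to 15.8, while zpg is low in Nop60B RNAi polysome replicate 1 alone. The summed early somatic markers were higher in Nop60B RNAi than in YWT, which lowers this ratio for a gene with an unchanged level.

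Inx7, a minor innexin of these ovaries, lay lower in Nop60B RNAi than in every control library, as did 34.6% (polysomes) and 38% (input) of all genes against YWT and 20.6% and 30% against the cyst control. In polysomes it was at 1.42 and 7.88 CPM in Nop60B RNAi, 69.2 and 23.4 CPM in the cyst control and 20.0 and 18.4 CPM in YWT. In input it was at 3.95 and 3.72 CPM in Nop60B RNAi, 53.3 and 16.4 CPM in the cyst control and 14.4 and 15.9 CPM in YWT. The differences did not pass the test: -2.04 ± 0.94 in polysomes (edgeR adjusted p = 0.184) and -1.98 ± 0.95 in input (adjusted p = 0.274) relative to YWT, and -3.31 ± 0.99 in polysomes (0.0608) and -3.18 ± 0.99 in input (0.0943) relative to the cyst control. When cyst control lysate 1 was left out, the Inx7 difference in polysomes was -2.04 against YWT and -2.33 relative to the cyst control. Without cyst control polysome replicate 2 it was -3.85 in polysomes and -3.15 in input relative to the cyst control. In input it was -3.18 without polysome replicate 1. The Inx7 calls depended on the library left out, as did the share of all genes called. DESeq2 called Inx7 lower relative to the cyst control in polysomes (-3.27, adjusted p = 0.00214) and in input (-3.12, adjusted p = 0.00531). It lies 293 bases from ogre, which did not share this pattern. Inx7 in input was also set per 100 CPM of germline markers. It was then at 0.67 and 0.55 in Nop60B RNAi, 2.26 and 0.33 in the cyst control and 0.30 and 0.36 in YWT. In polysomes this ratio was 0.23 and 1.31, 2.91 and 0.73, and 0.56 and 0.57 in the same order. Per 100 CPM of early somatic markers, Inx7 in Nop60B RNAi was below every control library in both fractions. Which cells hold Inx7 here was not tested.

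Inx5 and Inx6 had few counts, and Inx5 had most of them in the cyst control. Inx5 had 0 and 0 counts in Nop60B RNAi polysomes, 77 and 35 in cyst control polysomes and 0 and 5 in YWT polysomes. In input it had 5 and 5 counts in Nop60B RNAi, 28 and 22 in the cyst control and 0 and 0 in YWT. It thus passed the filter on low counts through the cyst control alone. Against the cyst control, Inx5 fell in Nop60B RNAi polysomes (edgeR adjusted p = 0.0461): with a floor of 3 counts per library in Nop60B RNAi, set against 18.4 ± 23.2 CPM in the cyst control, it was at least 99.9-fold lower in Nop60B RNAi, or at least 11.0-fold with cyst control replicate 2 alone. Adjusted p was 0.0689 with the replicate block, 0.0855 without cyst control lysate 1, and 0.0576 to 0.16 without any 1 library other than cyst control polysome replicate 2. The cyst control was at least 5.42-fold above YWT in Inx5 input, or at least 3.42-fold with replicate 2 alone, which did not pass (adjusted p = 0.184). Inx6 had 9 counts in Nop60B RNAi input replicate 2, 2 counts in YWT input replicate 1 and 0 in the other 10 libraries, and did not pass the filter on low counts. These bounds cover counting error only.

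Of the 7 innexins, 6 were tested. In polysomes against YWT, 1 of 6 was called lower (zpg) and 0 higher, where 3.26% of all genes were called lower and 5.38% higher. Against the cyst control, 2 of 6 were called lower in polysomes (zpg, Inx5) and 0 higher, where 5.52% of all genes were called lower and 3.98% higher. Inx5 passed the filter on low counts through the cyst control alone, the group where it was high. Calls of Inx5 that involve that group, here and below, are therefore not support for a difference. In input 0 of 6 were called against either control, where 1.23% of genes were called lower and 2.93% higher against YWT, and 2.32% and 2.18% against the cyst control. At an unadjusted p under 0.05 the input counts were 1 lower (zpg) and 1 higher (Inx3) against YWT and 3 lower (zpg, Inx2, Inx7) against the cyst control; DESeq2 called 1 lower (zpg) and 2 lower (zpg, Inx7) in these comparisons, and 3 lower (zpg, Inx5, Inx7) in polysomes against the cyst control. The median log2 difference of the tested innexins in polysomes was -0.99 against YWT and -2.23 against the cyst control, with -0.08 and -0.18 over all genes. By a second criterion, at least 2-fold with an unadjusted p under 0.05, which the study used for polysome association and which is applied here to both fractions, zpg was lower and Inx3 higher against YWT in both fractions, where 11.7% of genes were lower and 14.1% higher in polysomes, and 6.35% lower and 11.5% higher in input. By the same criterion, 3 innexins were lower than in the cyst control in polysomes (zpg, Inx5, Inx7) and 3 in input (zpg, Inx2, Inx7), where 16.7% and 10.2% of genes were lower, and 0 were higher, where 9.84% and 9.01% were. Without cyst control lysate 1, Inx3 was called higher and zpg lower against both controls in both fractions, beside Inx7 lower in polysomes and Inx2 lower in input against the cyst control; the share of all genes called in that fit was 19.5% higher and 20.7% lower in polysomes against YWT, and 14.8% and 18.1% against the cyst control. In input it was 16.1% higher and 14.3% lower against YWT, and 13.9% and 16.3% against the cyst control.

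**Figure D4:**
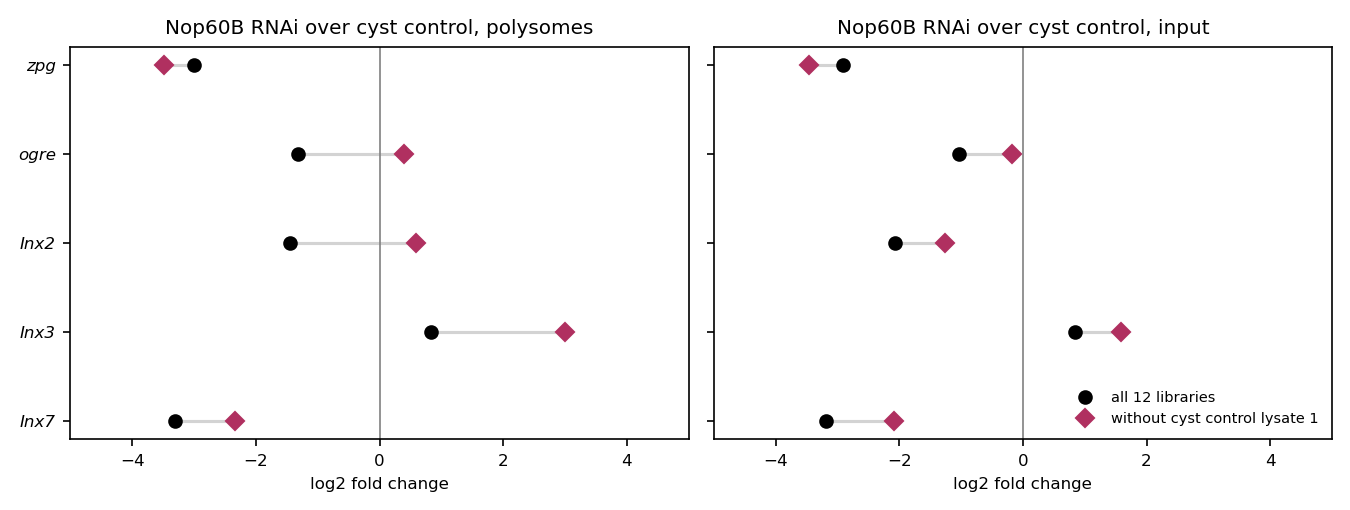
Log2 fold changes for 5 innexins with counts in all groups, in polysomes (left) and input (right) of Nop60B RNAi over the cyst control, fitted with all 12 libraries (circles) and without both libraries of cyst control lysate 1 (diamonds). Inx3 in polysomes moves to 3.00 without that lysate, against 0.84 with it, and ogre and Inx2 change sign in polysomes.

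Between the controls, no innexin was called. The cyst control differed from YWT by -0.22 in zpg, 1.38 in ogre, 1.63 in Inx2, 1.45 in Inx3 and 1.26 in Inx7 in polysomes (log2), and by -0.10, 1.24, 1.60, 1.08 and 1.20 in input, with edgeR adjusted p of 0.113 or more for all 6 tested innexins. In this comparison 3.03% of genes were called higher and 1.82% lower in polysomes, and 2.07% higher and 1.98% lower in input. At an unadjusted p under 0.05 with at least a 2-fold difference, Inx2 and Inx5 were higher in each fraction and 0 lower, where 14% of genes were higher and 6.96% lower in polysomes and 9.85% and 7.46% in input; DESeq2 called Inx5 higher in each. When cyst control polysome replicate 2 was left out, ogre (2.06, adjusted p = 0.00416), Inx2 (2.37, 0.00254), Inx3 (2.20, 0.00199) and Inx5 (0.0144) were called higher in polysomes, where 17.2% of all genes were called higher in the same fit, and in input ogre (1.21, 0.0492) and Inx2 (1.57, 0.0225), where 10.9% were. When polysome replicate 1 was left out, ogre (1.24, 0.046) and Inx2 (1.60, 0.0211) were called higher in input, where 11.4% of all genes were. With cyst control lysate 1 left out, 0 of 6 innexins were called, where 9.93% of genes were higher and 9.61% lower in polysomes and 12.2% and 9.91% in input, and the polysome differences of ogre (-0.34), Inx2 (-0.41) and Inx3 (-0.70) were below 0 and that of zpg was above it, at 0.25, with adjusted p from 0.0717 for Inx3 to 0.852 for zpg. Of the later egg chamber markers (15 tested), 11 were called higher and 0 lower in cyst control polysomes, with a median of 4.02 (log2), and 8 and 0 in input, with a median of 3.59. In Nop60B RNAi against the cyst control, 8 of them were called lower in polysomes and 11 in input, with medians of -3.60 and -4.95 and 0 higher. Of all genes, 5.52% in polysomes and 2.32% in input were called lower in that comparison. Heat shock genes (12 listed) summed to 18919 to 58495 CPM in the cyst control and 4718 to 5876 CPM in YWT, and the part of either list in any innexin difference was not tested.

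Polysome and input libraries of 1 lysate give the share of each mRNA that sedimented with ribosomes, relative to other mRNAs. For zpg the log2 ratio of polysome to input CPM was -1.83 and 0.56 in Nop60B RNAi, 0.16 and -0.10 in the cyst control and -0.13 and 0.36 in YWT. The Nop60B RNAi lysates thus fell on both sides of every control lysate. For Inx2 the ratio was 0.88 and 1.10 in Nop60B RNAi, 0.68 and -0.86 in the cyst control and 0.78 and -0.18 in YWT. For Inx3 it was 0.74 and 0.51 in Nop60B RNAi, 0.96 and -0.79 in the cyst control and 0.29 and 0.19 in YWT. Both Nop60B RNAi lysates were above both YWT lysates for these genes, by a margin within the spread of the cyst control. For Inx2 the nearest lysates were at 0.88 and 0.78. How often the ratios of other genes lie apart in this way was not counted. For ogre it was -0.08 and 0.29 in Nop60B RNAi, 0.63 and -0.46 in the cyst control and 0.53 and -0.05 in YWT, and for Inx7 it was -1.47 and 1.08 in Nop60B RNAi, 0.38 and 0.52 in the cyst control and 0.47 and 0.21 in YWT.

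No innexin passed edgeR's test of polysomes against input in any genotype, nor of a shift of this ratio between Nop60B RNAi and either control, and 0% of all 10035 genes did. At an unadjusted p under 0.05, 0 of 6 innexins differed between polysomes and input within a genotype, and Inx5 alone had a lower ratio in Nop60B RNAi than in each control, resting on 0 counts in the Nop60B RNAi polysomes; DESeq2 called 0 innexins in these 5 comparisons. When cyst control polysome replicate 2 was left out, Inx3 was called higher in cyst control polysomes than in input (1.43, adjusted p = 0.026) and Inx5 was called lower in the shift against the cyst control (-9.32, adjusted p = 0.0435).

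**Figure D5:**
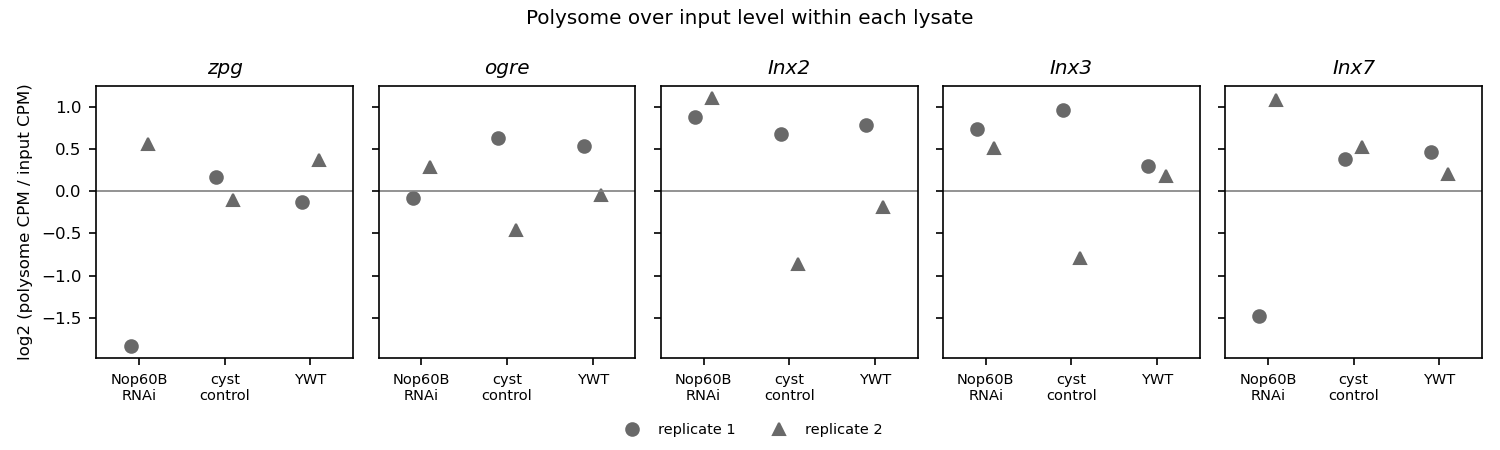
Log2 ratio of polysome to input CPM (vertical axis) within each lysate for the 5 innexins with counts in all groups, by genotype; circles are replicate 1 and triangles replicate 2. For zpg and Inx7 the 2 Nop60B RNAi lysates lie on opposite sides of 0, at -1.83 and 0.56 and at -1.47 and 1.08.

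The remaining innexin of the family, shakB (FBgn0085387), is known for electrical synapses of the nervous system. It was at 62.0 and 68.6 CPM in Nop60B RNAi polysomes, 1.81 and 13.1 CPM in the cyst control and 3.25 and 8.13 CPM in YWT. In input it was at 126 and 162 CPM in Nop60B RNAi, 92.1 and 15.2 CPM in the cyst control and 15.8 and 14.1 CPM in YWT. It rose in Nop60B RNAi polysomes against YWT by 3.52 ± 0.96 (edgeR adjusted p = 0.0462), and the other differences were 3.26 in input (adjusted p = 0.0827), 3.04 in polysomes against the cyst control (adjusted p = 0.0672) and 1.43 in input (adjusted p = 0.388). The polysome call against YWT was lost without any 1 of the Nop60B RNAi or YWT libraries (adjusted p from 0.0763 without YWT input replicate 2 to 0.251 without YWT polysome replicate 1) and with upper-quartile factors (3.48, adjusted p = 0.0549). With cyst control lysate 1 left out, the shakB difference from the cyst control was 3.24 in input and 2.32 in polysomes. In polysomes it was 5.21 without cyst control polysome replicate 2 alone, so its size followed the replicate kept. Without cyst control input replicate 1 or 2 it was 3.04 and 3.05 in polysomes. In input against YWT it was 3.26 without any 1 cyst control library. Whether shakB was called in input against YWT or in polysomes against the cyst control depended on the library left out. More genes were called in all when a cyst control library was left out. Neural and glial markers (8 measured) summed to 444 to 532 CPM in Nop60B RNAi, 47.9 to 384 CPM in the cyst control and 57.3 to 79.3 CPM in YWT. Hemocyte markers (9 measured) summed to 1695 to 3291, 535 to 1007 and 137 to 149 CPM in the same order. Of the neural and glial markers, 1 was called higher in polysomes against YWT, Gs2, which is also an early somatic marker. Against the cyst control 1 was, nrv3, while elav, Syt1 and repo were below 0. The shares of all genes were 5.38% and 3.98%. In input 0 were called against either control. Sheath muscle markers were at 36579 to 43170 CPM in Nop60B RNAi and 6344 to 7397 CPM in YWT. Their part in the shakB difference was not tested.

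Other cell junctions were followed for comparison through lists of septate junction genes, which seal epithelia, and adherens junction genes, which tie cells to each other. The median difference of 22 tested septate junction genes in Nop60B RNAi polysomes against YWT was 2.08 (log2), close to the value of Inx3. Of them, 11 rose and 0 fell, where 5.38% of all genes were called higher and 3.26% lower. Examples were cora, which links the junction to the cytoskeleton (3.07, edgeR adjusted p = 0.0273), nrv2, a subunit of the sodium pump (2.95, adjusted p = 0.0368), and the claudin kune (2.44, adjusted p = 0.0260). In input 1 of the 22 rose against YWT, the adhesion protein gene Cont (1.82, edgeR adjusted p = 0.0201), where 2.93% of all genes were called higher. Against the cyst control 0 rose and 1 fell in polysomes, yrt (-1.35, edgeR adjusted p = 0.0471), and 0 changed in input. Of all genes, 3.98% were called higher and 5.52% lower against that control in polysomes, and 2.18% and 2.32% in input. Of 11 adherens junction genes, 1 rose in polysomes against YWT, Vinc (2.82, adjusted p = 0.0152), and 1 against the cyst control, the E-cadherin gene shg (2.30, adjusted p = 0.0208). No gene of either list was called against both controls. With cyst control lysate 1 left out, the median of the septate junction genes in polysomes was 2.08 against YWT and 1.15 against the cyst control. With all libraries the median against the cyst control in polysomes was 0.37. In input the median against the cyst control was 0.99 without that lysate and 0.19 with it. The input median against YWT was unchanged. Calls in the fit without that lysate rest on 1 cyst control library per fraction and are not counted here. The calls of septate junction genes in polysomes against YWT did not hold in every fit with a single library left out. In each comparison the number called depended on the library left out, as did the share of all genes called. The yrt call was lost in 15 of the 19 alternatives, those of Vinc and shg in 3 and 2. These junction genes were picked for naming after their values were seen.

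The likeness of other genes to each innexin was described by Pearson's r of log2 CPM over the 12 libraries, among 6986 genes with a mean of at least 10 CPM (6987 for Inx5, whose own mean lies below it). These points share lysates and genotypes, so r is given as a description. Closest to zpg were CG18190 (r = 0.986), CG5194 (0.961) and kipf (0.960), and closest to Inx3 were wdp (0.995), Mmp2 (0.981) and Fas3 (0.980), the last of which also belongs to the early somatic and septate junction lists. 14-3-3epsilon and qkr58E-3 were among the 3 closest genes of both ogre (0.962 and 0.951) and Inx2 (0.957 and 0.955), beside Pp1-87B for ogre (0.953) and Ubqn for Inx2 (0.961). For Inx7 the closest were CycH (0.951), lolal (0.949) and ball (0.947), and for Inx5, which rests on counts in few libraries, CG31388 (0.978), Dgp-1 (0.966) and MED31 (0.956). Among the innexins themselves r was highest between ogre and Inx2 (0.946), followed by zpg and Inx7 (0.779), and lowest between zpg and Inx3 (-0.801).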

How the data were processed

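The authors aligned single-end reads of poly(A)-selected RNA (a directional kit) to dm6 with HISAT2 2.1.0 and counted them with featureCounts 1.4.6, and the deposited files hold raw counts of 17023 FlyBase genes; versions come from the submitters' processing notes, and the treatment of reads with several alignments is not given in the sources used here. Reads carried no molecular identifiers. Symbols and exon lengths came from Ensembl release 115, which named 16647 of the 17023 genes, and sequences from the RefSeq Release 6 genome. In R 4.3.3 with edgeR 4.0.16, filterByExpr kept 10035 genes, TMM factors scaled the libraries, and 1 quasi-likelihood model of 6 group means was fitted over the 12 libraries, which shares the spread across groups. Calls are Benjamini-Hochberg adjusted p under 0.05 over all tested genes; the standard error is the log2 fold change divided by the square root of F. In simulated counts with the same spread in all groups, the test of Nop60B RNAi against YWT polysomes recovered the direction and median size of known changes. Those counts held no group with a wider replicate spread, such as the cyst control, so they cannot show how the shared spread performs there. In 11 comparisons, genotypes were compared within each fraction, polysomes with input within each genotype, and the polysome-to-input shift between genotypes. Alternatives were other scaling factors (RLE, upper-quartile), library totals, no filter, DESeq2 1.42.0, only the libraries compared, a replicate block and each library left out; leaving out cyst control lysate 1 was added after seeing the data. Input and polysome libraries of the same number came from 1 lysate, yet their replicate deviations correlated across genes only in the cyst control (r = 0.2863; -8e-04 in Nop60B RNAi and 0.0362 in YWT). Named genes were all members, shakB, the 3 genes most like each member and, per fraction, up to 2 junction genes called against both controls, of which there were 0. Other junction and marker genes named in the text fall outside this rule and were picked after their values were seen. The members and all lists were chosen with earlier results of these data known. Of the listed symbols, vas, nos, Mcr, wupA, br and Cg are not analysed here.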

Additional observations from a re-analysis of the deposited data

How the results depend on the processing

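Over 684 recomputed log2 differences of the 6 tested innexins between genotypes, 566 kept their direction and side of the threshold, 29 lost the call, 70 gained it and 19 changed direction. The number of innexins called in Nop60B RNAi input against YWT (0 higher, 0 lower) was 1 higher with no filter, with only the libraries of the comparison and without cyst control lysate 1, and 1 lower with no filter, with DESeq2, with the replicate block and without that lysate, or 3 lower with only the libraries of the comparison. In polysomes against YWT (0 higher, 1 lower) it was 1 higher with no filter, DESeq2, only the libraries compared and without lysate 1, which also gave 2 lower. In input against the cyst control (0 and 0) it was 1 higher without lysate 1, and 3 lower with no filter and with only the libraries compared, 2 with DESeq2 and without lysate 1, and 1 with the replicate block. In polysomes against the cyst control (0 higher, 2 lower) it was 1 higher without lysate 1, and 1 lower with upper-quartile factors, only the libraries compared and the replicate block, 5 with no filter and 3 with DESeq2. Between the cyst control and YWT (0 called) it was 1 higher in input with no filter and DESeq2, and 4 higher with no filter (ogre, Inx2, Inx3 and, at an adjusted p of 0.04996, Inx5) or 1 with DESeq2 in polysomes. For no filter, DESeq2, other scaling factors, the replicate block and only the libraries compared, the share of all genes called was not counted. A change in these counts is therefore not read as a result about the innexins. The causes were not tested.

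Without cyst control lysate 1, polysome differences changed sign for ogre (0.39) and Inx2 (0.59) in Nop60B RNAi against the cyst control, and for zpg (0.25), ogre (-0.34), Inx2 (-0.41) and Inx3 (-0.70) in the cyst control against YWT, as did zpg in input (0.45). With 1 library left out at a time, the number of innexins called between genotypes depended on the library left out, as did the share of all genes called. Values that changed sign in these fits ran from -0.16 to 0.31 (ogre), -0.16 to 0.63 (Inx2) and -4.56 to 0 (Inx5) in Nop60B RNAi polysomes against YWT, from -2.04 to 0.39 (ogre) and -2.22 to 0.59 (Inx2) against the cyst control, from -1.04 to 0.45 (zpg, input) and -1.03 to 0.25 (zpg), -0.34 to 2.06 (ogre), -0.41 to 2.37 (Inx2) and -0.70 to 2.20 (Inx3) in polysomes of the cyst control against YWT. Apart from the input calls of zpg given in the report and the Inx5 call, the replicate block changed no call of an innexin. With 2 libraries per group and 2780781 counts in the shallowest library, Inx5 and Inx6 could not be measured beyond their bounds.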
